A study of Mus musculus with 12 samples.

Results

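Among 12 RNA libraries of embryonic mouse cortex, 5 held the most RNA of striatal marker genes. These 5 were chosen by the mean log2 CPM (gene counts per library, scaled by depth) of Ebf1 and Rarb, transcription factor genes of developing striatal neurons, and were set against the other 7. Every difference over this split is therefore a description without a test. Ebf1 and Rarb, which chose the libraries, support nothing below.

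The study asked how loss of Arid1a, which encodes a subunit of BAF chromatin remodelling complexes that binds DNA, alters the developing cortex. It measured RNA in micro-dissected cerebral cortex at embryonic day 15.5 by ClickSeq, a random-primed method in which click chemistry joins the adaptor in place of ligation. By the labels 6 libraries were conditional mutants (Emx1-Cre Arid1a) and 6 were controls, all of batch 1, from 2 litters and of both sexes. The alleles of the controls, the deleted part of Arid1a and the number of embryos per library are not stated in the labels, so p-values measure the spread between these libraries. Emx1-Cre is a recombinase active in dorsal telencephalic progenitors and their descendants. It leaves most cells of the ganglionic eminences, vessels and blood with their alleles unrecombined.

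Libraries are named by genotype and a number in accession order. The 5 high libraries were mutants 1, 3 and 6 and controls 2 and 3, with 3 from litter 1 and 2 from litter 2. The other 7 were 3 mutants and 4 controls, with 3 from litter 1 and 4 from litter 2. Sex was uneven between genotypes: mutant 4 was the only male mutant, and controls 1 and 6 were the only female controls. In the 5 high libraries the mutants were female and the controls male, so genotype and sex cannot be told apart there. The other 7 were 4 female and 3 male. Gene counts ran from 643197 to 3525121 in the 5 and from 794716 to 2815042 in the 7, and the 2 shallowest libraries, mutant 1 and mutant 4, fell on opposite sides. The mitochondrial share of gene counts was 0.654 to 1.53% in the 5 and 0.787 to 1.998% in the 7, so neither depth nor this share separated them.

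The striatum forms from the lateral ganglionic eminence, a ventral swelling of the embryonic forebrain that lies next to the cortex across the pallial-subpallial boundary. Its progenitors express Dlx genes, and its neurons become GABAergic projection neurons that switch on factors such as Ebf1, Isl1, Six3 and Ikzf1 and later dopamine, adenosine and opioid receptors. The medial and caudal eminences instead send GABAergic interneurons into the cortex by tangential migration, so a cortex free of striatum still holds some GABAergic RNA. In whole tissue, fewer cells of a type and less RNA per cell cannot be told apart.

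The rule left a narrow gap between the sets. Mean log2 CPM of Ebf1 and Rarb was 8.11 in control 2, 8.07 in mutant 6, 7.83 in mutant 1, 7.17 in control 3 and 6.68 in mutant 3, the lowest of the 5. Just outside stood mutant 5 at 6.01, and the rest ran down to 2.54 in mutant 4. The order is a gradient rather than 2 tight clusters. Its widest gap lay within the other 7, between control 5 at 4.91 and control 4 at 3.51, and not at the split. The mean over Ebf1, Rarb, Six3, Isl1 and Meis2 put the same 5 libraries on top, but it includes the 2 genes that chose them.

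Of the 3 markers that the 2-gene mean did not use, 2 separated the sets and 1 did not. They belong to the same striatal marker set as Ebf1 and Rarb, so their levels are no independent support for the split. Six3, a homeobox factor of striatal neurons that become D2-type cells (GRCm38 chromosome 17, 85613608 to 85629302, plus strand), was at 9.12 CPM in mutant 1, 9.41 in mutant 3, 18.6 in mutant 6, 12.7 in control 2 and 11.3 in control 3. In the other 7 it ran from 0 through a median of 1.71 to 5.32 CPM, so the sets did not overlap. Isl1, a LIM-homeobox factor of direct-pathway striatal neurons, was at 16.7, 13.8, 34.4, 35.3 and 18.8 CPM in the same order, against 0.373 to 4.26 CPM with a median of 2.31. Isl1 also separated the sets fully, from 198 counts in the 5 and 26 in the 7. Meis2, a TALE-homeobox gene that cortical cells express too, ran from 1721 to 2592 CPM in the 5 and from 1260 to 1964 CPM in the 7, and these ranges overlapped.

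**Figure D1:**
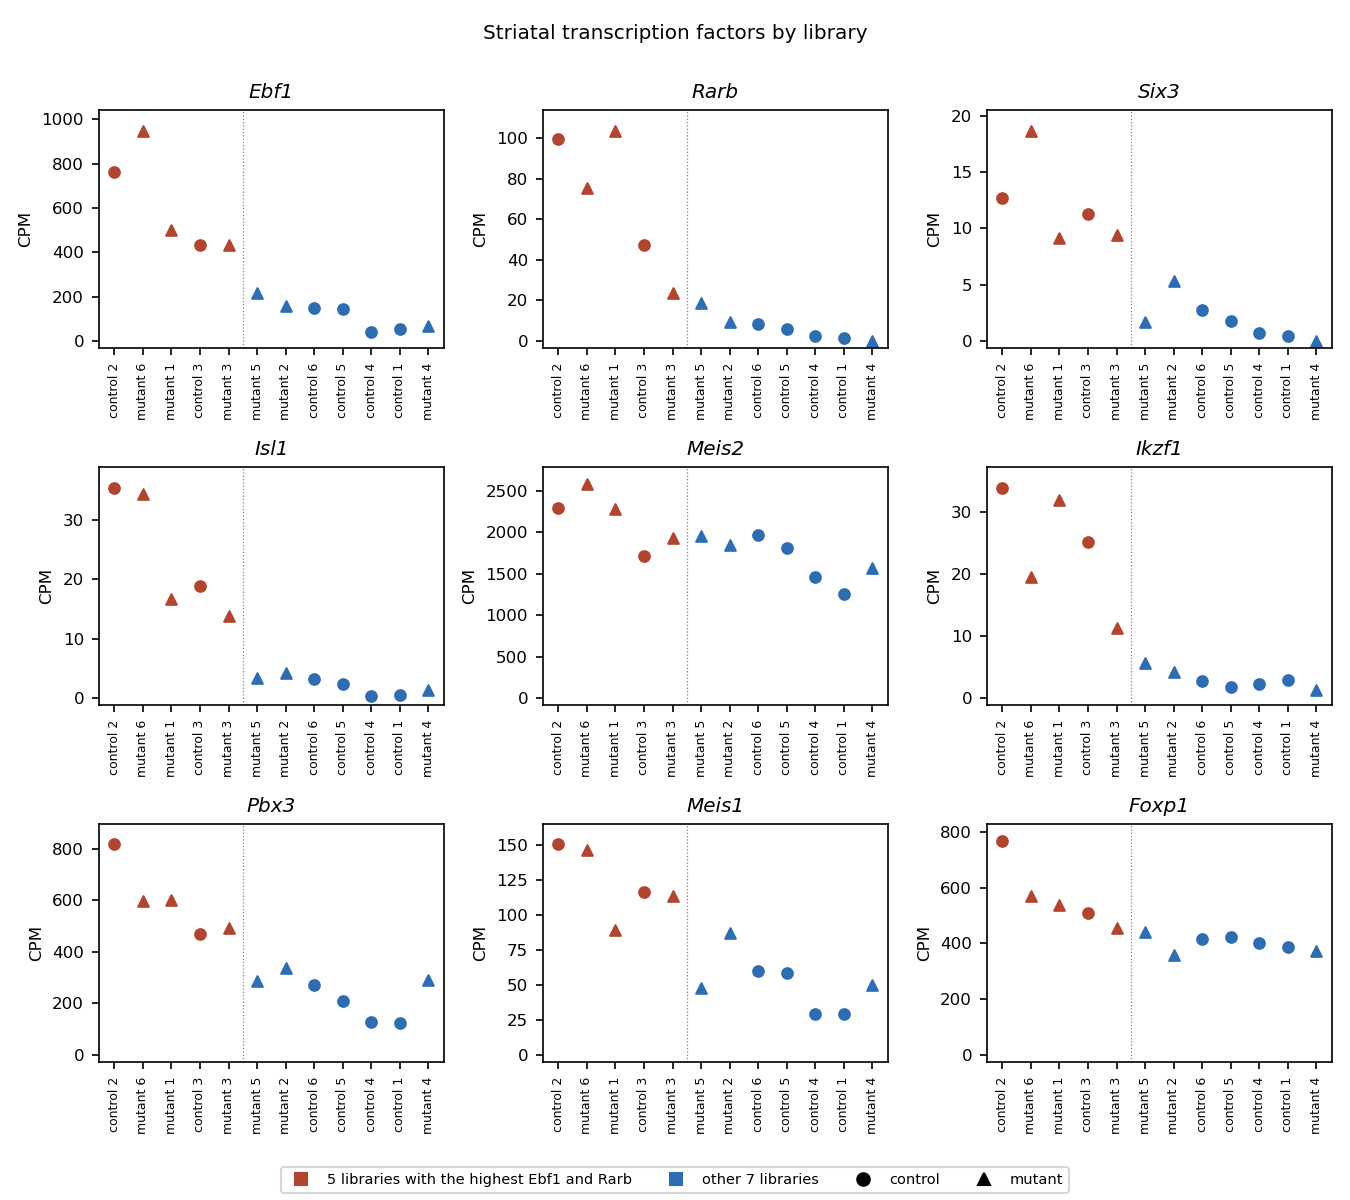
CPM of 9 striatal transcription factor genes in each library, with libraries ordered from left to right by the mean log2 CPM of Ebf1 and Rarb, the 5 high libraries in red and the other 7 in blue, circles for controls and triangles for mutants. All 5 red points lie above all blue points for every gene drawn except Meis2; Ebf1 and Rarb chose the order and carry no evidence.

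Of the 10678 genes that passed the filter on low counts, 62 (0.581%) had all 5 libraries above all of the other 7 and 26 (0.243%) had all 5 below. Because the libraries were picked on the same measurements, nothing is read from these shares. Without Ebf1 and Rarb 60 genes stood above, with a median fitted log2 difference of 0.93 and a range of 0.21 to 2.82, against a median of -0.0046 over all genes tested. The fit held genotype and litter as terms. Of the 60, 58 were protein coding and 16 belonged to the gene lists described next. Over all 10678 genes, 10236 were protein coding and 148 belonged to the lists. The lists were chosen with earlier results of these data known.

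Striatal transcription factors were higher where measured. Of 15 listed beside Ebf1 and Rarb, 12 passed the filter, all 12 had a positive difference, 5 separated the sets, and the median log2 difference was 0.50. Ikzf1, a zinc finger factor of D2-type striatal neurons (GRCm38 chromosome 11, 11685003 to 11772926, plus strand), was at 31.9 CPM in mutant 1, 11.3 in mutant 3, 19.5 in mutant 6, 33.9 in control 2 and 25.2 in control 3. The other 7 held 1.28 to 5.57 CPM with a median of 2.76, and the fitted log2 difference was 2.71. Both mutant and control libraries were found at the high end.

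Pbx3, a TALE-homeobox partner of Meis proteins, was at 602, 493, 596, 819 and 469 CPM in mutants 1, 3 and 6 and controls 2 and 3. The other 7 ran from 124 to 338 CPM with a median of 271, a log2 difference of 1.37. Meis1 was close to overlap: its 5 values ran from 89.6 to 151 CPM, and the highest of the 7 was 87.3 CPM in mutant 2. Foxp1, a forkhead factor of striatal and upper-layer cortical neurons, separated with a small log2 difference of 0.53 (457 to 768 against 359 to 442 CPM).

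The remaining measured factors overlapped between the sets. Sp9, which acts in lateral eminence progenitors and D2-type neurons, had a log2 difference of 1.34, but mutant 2 at 28.7 CPM lay above mutant 1 at 21.3 CPM. Foxp2, Bcl11b, Tshz1, Zswim6 and Zfp521 had log2 differences of 0.47, 0.29, 0.26, 0.17 and 0.05. Bcl11b and Foxp2 are also genes of deep-layer cortical neurons. The 3 listed factors under the filter could show no difference in the fit, since the filter asked for an adequate count in about as many libraries as 1 genotype has, more than the 5. All 3 separated by level all the same. Beside Isl1 these were Rxrg, a retinoid receptor of striatal neurons, at 7.20 to 42.4 against 0.373 to 3.19 CPM, and Zfp503, a zinc finger factor of the lateral eminence, at 6.78 to 15.8 against 0.373 to 3.85 CPM.

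Receptors and signalling proteins of mature striatal neurons were mixed. Of 24 listed, 13 passed the filter, 10 were positive and 3 negative, 3 separated the sets and the median log2 difference was 0.16. Drd2, the dopamine D2 receptor of indirect-pathway neurons (GRCm38 chromosome 9, 49340627 to 49408177, plus strand), was at 38.0 CPM in mutant 1, 8.03 in mutant 3, 14.9 in mutant 6, 43.1 in control 2 and 16.6 in control 3. The other 7 held 0.747 to 6.44 CPM with a median of 4.26, a log2 difference of 2.54. Control 2 and mutant 1 stood well above the other 3 high libraries for this gene.

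Adora2a, the adenosine receptor of the same neurons, was at 18.2, 7.75, 9.29, 16.3 and 10.2 CPM in mutants 1, 3 and 6 and controls 2 and 3, against 1.49 to 6.39 CPM and a log2 difference of 1.62. Oprm1, the mu opioid receptor, was at 59.3, 9.69, 35.3, 64.3 and 33.5 CPM in the same order, against 2.51 to 7.47 CPM and a log2 difference of 2.67. Mutant 3, the library nearest the threshold, gave the lowest of the 5 values for all 3 receptors. The D1-type and peptide genes of the list were scarce in these libraries: Drd1, Penk, Tac1 and Pdyn were under the filter, with 70, 24, 25 and 12 counts over all 12 libraries. Drd1 was at 1.52 to 7.07 CPM in the 5 and 0 to 3.73 CPM in the 7, from 40 and 30 counts. Tac1 had 21 counts in the 5 and 4 in the 7, Pdyn 11 and 1, and Penk 16 and 8. The CPM ranges of each of these genes overlapped. Among measured enzymes and effectors, Rgs9 and Gnal had log2 differences of 0.56 and 0.49 and overlapped, while Pde10a, Adcy5 and Arpp21 had 0.02, 0.05 and -0.07. Cnr1, the cannabinoid receptor, had the lowest value of the list at -0.32, with 63.2 to 184 CPM and a median of 120 in the 5 against 101 to 238 CPM and a median of 148 in the 7.

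GABA synthesis and transport genes were higher as a group. Of 7 listed, 6 passed the filter, all 6 were positive, 5 separated the sets and the median log2 difference was 0.96. Summed over the 7 genes, the level was 551 to 701 CPM in the 5 and 196 to 450 CPM in the 7. Gad2, which makes GABA from glutamate (GRCm38 chromosome 2, 22622205 to 22693874, plus strand), was at 252 CPM in mutant 1, 244 in mutant 3, 311 in mutant 6, 320 in control 2 and 245 in control 3. The other 7 ran from 62.0 through 106 to 185 CPM, a log2 difference of 1.31. Mutant 3, low for the receptors, was level with mutant 1 and control 3 for Gad2.

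Slc32a1, the vesicular GABA transporter, had a log2 difference of 1.18 (17.7 to 29.7 against 4.18 to 16.7 CPM), and Gad1 one of 0.99 (104 to 136 against 37.7 to 86.2 CPM). Abat, which degrades GABA, had 0.81 and also separated. The glial transporter gene Slc6a11 overlapped with 0.48.

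Subpallial progenitor and GABAergic precursor factors were higher as well. Of 17 listed, 11 passed the filter, all 11 were positive, 4 separated the sets, among them Six3os1, Gad2 and Gad1, and the median log2 difference was 0.99. The list shares Gad1 and Gad2 with the list of GABA synthesis. Dlx1, a homeobox factor of subpallial progenitors, was at 65.3 CPM in mutant 1, 61.2 in mutant 3, 106 in mutant 6, 80.5 in control 2 and 41.8 in control 3, with a log2 difference of 1.33. The other 7 held 13.8 to 54.3 CPM, so control 3 lay below mutant 2. Dlx2 and Dlx5 also overlapped, with 1.10 and 0.84. Dlx6os1, the antisense transcript at the Dlx5 and Dlx6 locus, had 1.35, and mutant 2 at 387 CPM exceeded mutant 1 at 328 CPM.

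**Figure D2:**
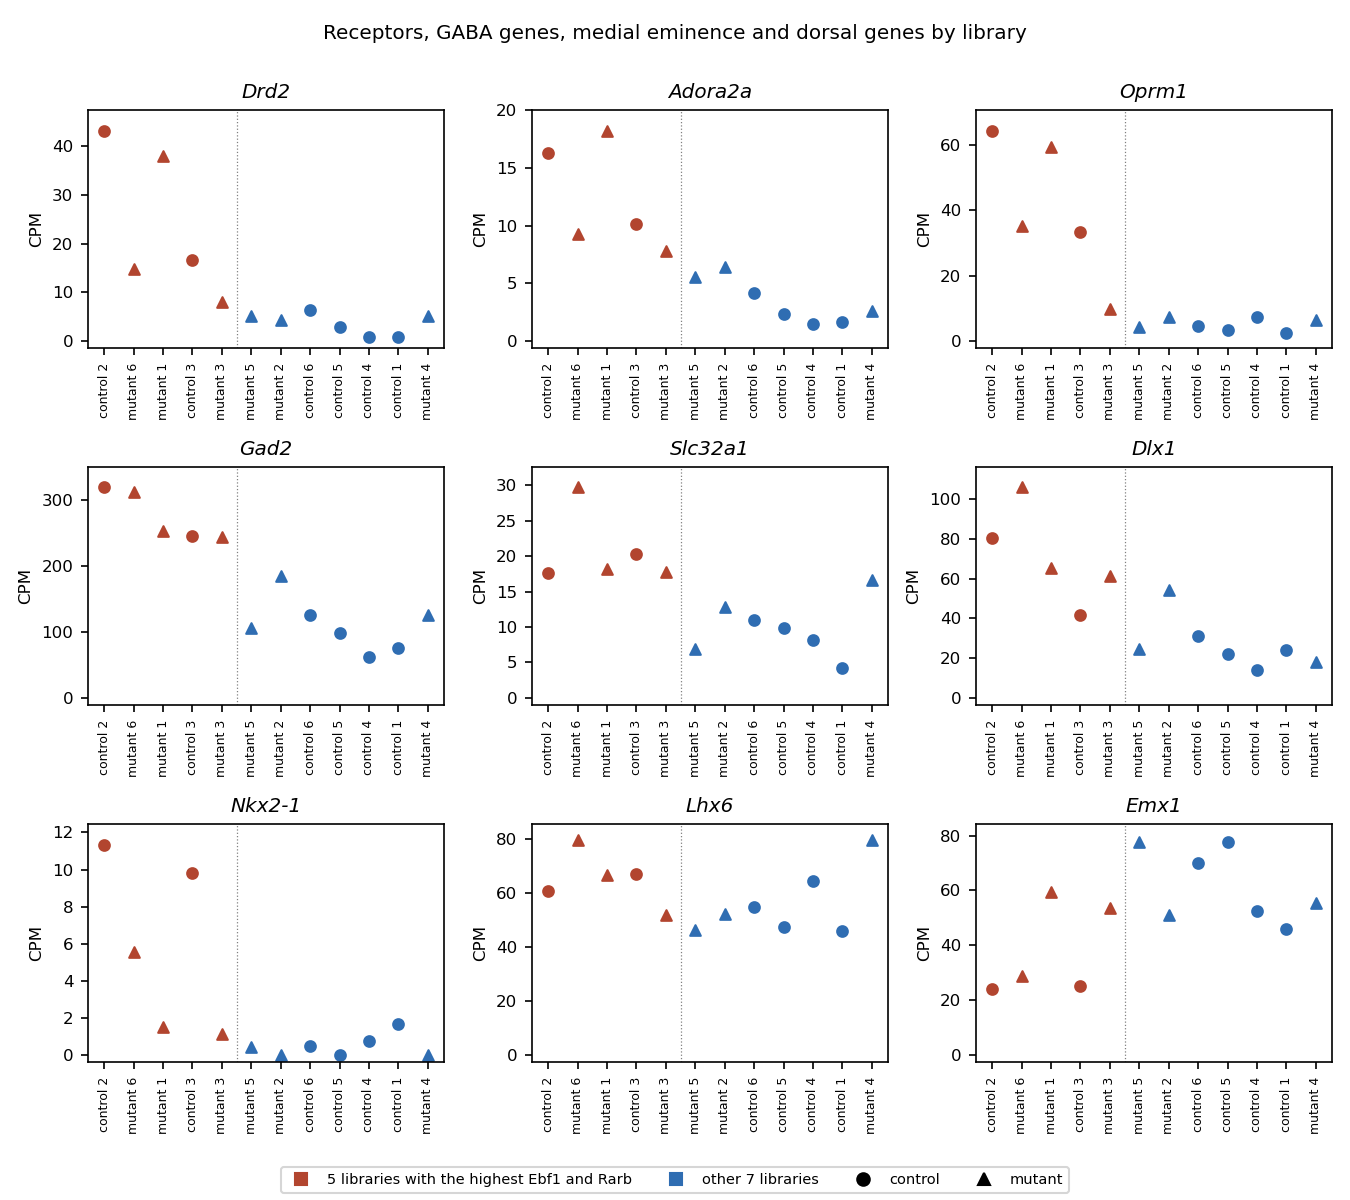
CPM per library of 3 receptor genes, 3 GABAergic genes, 2 medial eminence genes and the dorsal gene Emx1, in the same library order and colours as the plot of striatal factors. Nkx2-1 is raised in control 2, control 3 and mutant 6, from 5.58 to 11.3 CPM, and these 3 libraries also have the lowest Emx1, from 24.0 to 28.8 CPM.

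The medial ganglionic eminence list did not follow the split as a group. Of 19 listed, 14 passed the filter, 0 separated the sets, and the median log2 difference was 0.14 with 8 positive and 6 negative. Lhx6, the LIM-homeobox factor of migrating medial eminence interneurons, was at 66.9, 51.8, 79.9, 60.8 and 67.0 CPM in mutants 1, 3 and 6 and controls 2 and 3. The other 7 ran from 46.0 through 52.1 to 79.6 CPM, and the log2 difference was 0.21. Sst, the somatostatin gene, had the largest difference of the list at 1.40 with overlapping ranges of 9.89 to 19.2 and 1.49 to 19.3 CPM.

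Nkx2-1, which marks medial eminence progenitors and is switched off in interneurons bound for the cortex, divided the 5 high libraries among themselves. It was at 11.3 CPM in control 2, 9.79 in control 3 and 5.58 in mutant 6, from 16, 26 and 6 counts, and at 1.52 in mutant 1 and 1.11 in mutant 3, from 1 and 4 counts. The other 7 held 0 to 1.67 CPM, so mutants 1 and 3 lay within their range. Lhx8, a factor of ventral cholinergic neurons, followed the same 3 libraries at 14.8, 4.90 and 2.79 CPM, with at most 1.52 CPM in the remaining 9. Both genes were under the filter and rest on few counts. Six3, Isl1 and Gad2 stood above the other 7 in all 5, which Nkx2-1 did not. Within the 5, the same 3 libraries also held the most Six3, at 11.3 to 18.6 CPM against 9.12 and 9.41 CPM in mutants 1 and 3. Isl1 shared this order, at 18.8 to 35.3 CPM against 16.7 and 13.8 CPM. Gad2 did not, with control 3 at 245 CPM and mutant 1 at 252 CPM. In mutant 1 the level rests on 6 counts for Six3 and 11 for Isl1. Whether these orders exceed counting error was not tested.

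Of the caudal eminence list 7 of 10 genes passed the filter, 1 separated the sets and the median log2 difference was 0.40. That gene was Sp8, a zinc finger factor of caudal and dorsal lateral eminence, at 9.12 to 14.9 CPM against 3.85 to 8.78 CPM with a log2 difference of 0.94. Mutant 3, the lowest library for the receptors, was the highest for Sp8. Adarb2, an RNA-editing family gene of caudal interneurons, had 0.80 and overlapped.

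Retinoid signalling, which patterns the striatum, was measured by 7 of 16 listed genes beside Rarb. None of the 7 separated the sets and their median log2 difference was 0.31. Summed over all 16 genes, which include Rxrg, the level was 116 to 153 CPM in the 5 and 73.4 to 104 CPM in the 7. Rxrg, also on the list of striatal factors, adds 7.20 to 42.4 CPM to the 5 and 0.373 to 3.19 CPM to the 7. The gap in the sum is therefore no sign that the other retinoid genes separate. Septal and cholinergic genes pointed the other way where measured: 3 of 4 were negative, none separated, and Zic2 was at -0.90.

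Many of the leading genes lie outside the lists. Among the 20 largest differences over genes with all 5 above all 7, Dchs2, a protocadherin gene, had 2.51, Ano3, an anoctamin membrane protein gene, 2.27, and Stk33, a kinase gene, 1.82. Spock3, a proteoglycan gene, had 1.68, Ntn1, the guidance cue netrin-1, 1.66, and Kcnh1, a voltage-gated potassium channel gene, 1.66. Zcchc12, Vstm2a and Scml4 followed with 1.44, 1.43 and 1.43. Ano3 was at 33.4, 11.3, 23.2, 33.9 and 24.5 CPM in mutants 1, 3 and 6 and controls 2 and 3, against 1.28 to 8.51 CPM. Ntn1 was at 50.1, 37.9, 83.6, 79.1 and 41.8 CPM, against 2.57 to 25.9 CPM. Nrxn3, a presynaptic neurexin gene, separated at high counts with 0.98 (4841 to 7804 against 2140 to 4695 CPM).

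Whether counting used strand is not stated in the labels, so overlapping genes cannot be told apart from each other. Six3os1, antisense to Six3, had a log2 difference of 1.94 and may share reads with it. Sox2ot had 1.07 (1594 to 1928 against 408 to 1546 CPM). Sox2 lies inside Sox2ot and was at a count of 0 in all 12 libraries, so nothing is said of Sox2 here. Dlx6os1 lies antisense to Dlx6 and cannot be told apart from it. Many other leading genes, among them Ikzf1, Oprm1, Pbx3, Meis1, Dlx1, Gad1, Slc32a1, Nrxn3, Dchs2, Ano3, Stk33, Cobl, Spock3, Kcnh1 and Scml4, also overlap an annotated gene on the other strand.

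Pearson's r with the mean log2 CPM of the 5 markers, over the 12 libraries, was highest outside the markers for Vstm2a (0.94), Adora2a (0.93), Ikzf1 (0.92), Sox1ot (0.92) and Meis1 (0.92). Dlx6os1, Dlx1, Gad2, Sox2ot and Pbx3 completed the first 10, with 0.90 to 0.91. These points share library depth and tissue makeup with the markers, so the values describe likeness only.

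Promoter letters were read for the 60 genes because they move together and because Dlx and many other homeodomain proteins bind the core TAATTA, which is its own reverse complement. In RefSeq promoters (GRCm38.p6), 42 of the 60 had an entry, and 3 of these (7.143%) held TAATTA within 250 bases before the start: Cobl, Sp8 and Foxp1. The motif was found in 0 of 19 genes with all 5 below, in 257 of 8351 genes tested (3.077%) and in 1527 of all 27025 genes with a promoter entry (5.65%). A gene was counted if any of its promoters held the motif. The share among the 60 rests on 3 genes. The first 200 of the 250 bases are shown for a gene of actin nucleation, Cobl (chr11:12412191-12412390, minus strand), and for Sp8 (chr12:118847309-118847508, plus strand), with the motif in capitals.
Cobl: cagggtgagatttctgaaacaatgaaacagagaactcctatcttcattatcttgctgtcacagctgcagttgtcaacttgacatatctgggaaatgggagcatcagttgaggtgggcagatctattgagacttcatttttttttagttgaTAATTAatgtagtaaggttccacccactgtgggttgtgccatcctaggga
Sp8: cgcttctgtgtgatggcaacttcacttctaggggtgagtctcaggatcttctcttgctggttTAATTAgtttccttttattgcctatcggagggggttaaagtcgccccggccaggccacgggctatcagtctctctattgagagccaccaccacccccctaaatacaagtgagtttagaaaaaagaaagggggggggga
The motif begins 100 bases before the start in Cobl and 188 in Sp8. A match is a description of these letters and not a bound site.

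Genes with all 5 libraries below all 7 differed less. The 26 had a median log2 difference of -0.38 and a lowest of -0.73. Of them 0 belonged to a list, against 148 of all 10678 genes tested, so nothing is read from this. Masp1, a protease gene of the lectin complement pathway with a role in neuronal migration, was at 138, 143, 107, 68.5 and 109 CPM in mutants 1, 3 and 6 and controls 2 and 3. The other 7 ran from 146 through 173 to 222 CPM, a difference of -0.73. Tspan18, a tetraspanin gene, had -0.71 (86.2 to 134 against 146 to 236 CPM). Frmd4b, a FERM-domain scaffold gene, was at 799 to 890 against 1076 to 1284 CPM, a difference of -0.45 with little spread inside either set. Grtp1, Kcnab1, Rabepk, Idua, Mfap2, Plekhf2 and Galnt17 made up the rest of the 10 lowest, from -0.66 to -0.48.

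Dorsal pallium genes were lower as a list without separating. Of 25 listed, 22 passed the filter, 20 were negative, 0 separated, and the median log2 difference was -0.32. Their sum was 8373 to 11000 CPM in the 5 and 9322 to 15330 CPM in the 7. Emx1, the homeobox gene whose locus drives the Cre line, was at 59.3 CPM in mutant 1, 53.4 in mutant 3, 28.8 in mutant 6, 24.0 in control 2 and 25.2 in control 3. The other 7 held 46.0 to 77.5 CPM, so mutants 1 and 3 were inside that range and the other three were below it. The difference was -0.73. Fezf2, a factor of deep-layer projection neurons, had the lowest value of the list at -1.02 (18.4 to 38.0 against 34.1 to 84.2 CPM).

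Both progenitor genes shown next were lowest in control 2. Eomes, of intermediate progenitors, was at 25.4 CPM in control 2 and 65.5 to 102 CPM in the other 4 high libraries, against 82.2 to 138 CPM. Neurog2, a proneural factor, was at 9.89 CPM in control 2 and 24.9 to 38.0 CPM in those 4, against 32.5 to 51.1 CPM. All 10 measured radial glia genes were negative, with a median of -0.24. Hes1, a Notch target, had -1.20 and overlapped only between mutant 3 at 6.65 CPM and mutant 4 at 6.42 CPM. Cell cycle genes were centred, with 7 of 15 positive and a median of -0.03.

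**Figure D3:**
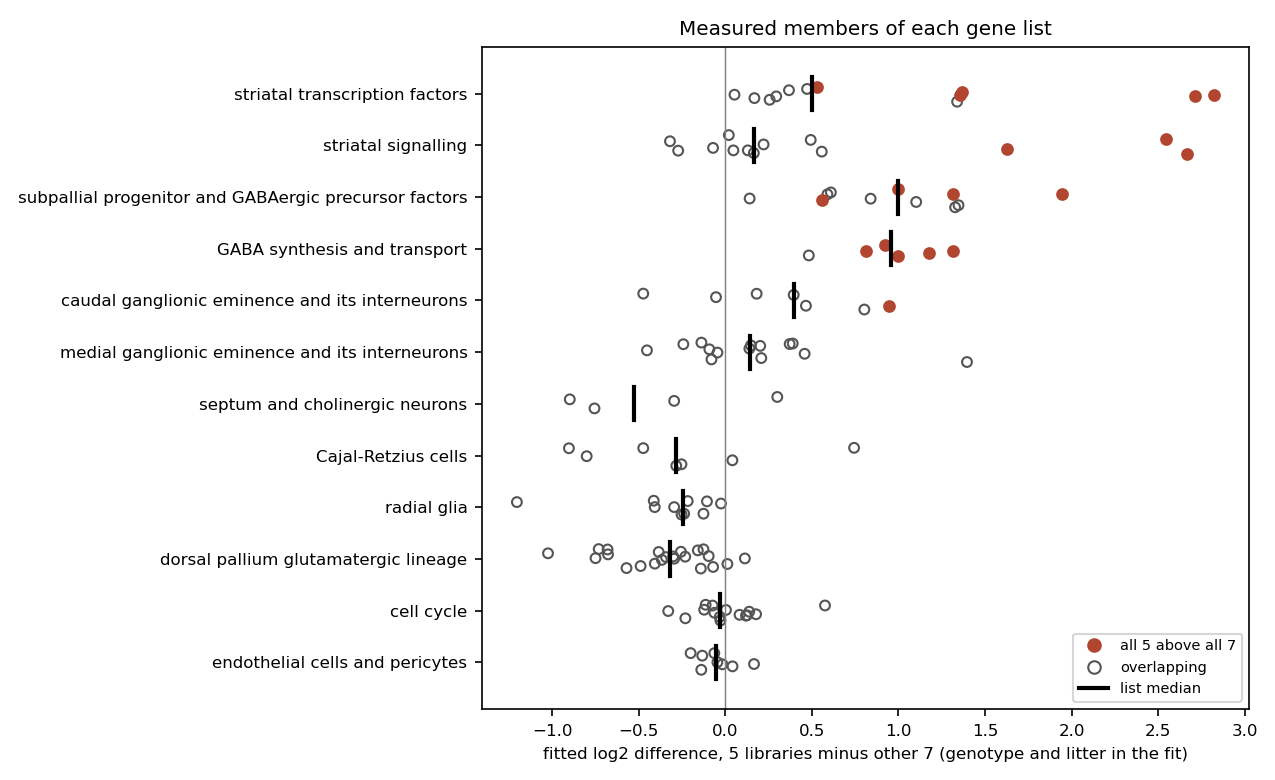
Fitted log2 difference, the 5 high libraries minus the other 7, for each measured member of 12 gene lists, with Ebf1 and Rarb left out. Filled points are genes with all 5 libraries above all 7 and bars are list medians, which run from 0.99 for subpallial precursor factors to -0.52 for septal genes.

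The lists for vessels, Cajal-Retzius cells, oligodendrocyte precursors, blood, microglia, meninges, diencephalon, hem and choroid plexus held no separated gene. Endothelial and pericyte genes had 8 of 12 measured, a median of -0.05, and sums of 106 to 138 CPM in the 5 and 103 to 134 CPM in the 7. Cajal-Retzius genes had 7 of 9 measured, a median of -0.28, and sums of 345 to 616 and 355 to 930 CPM. Oligodendrocyte precursor genes had 3 of 6 measured with a median of 0.54, and sums of 31.8 to 58.4 and 15.4 to 59.3 CPM. Red blood cell genes had 3 of 9 measured with a median of -0.23, and sums of 18.0 to 45.6 and 9.83 to 66.1 CPM. No microglial or meningeal gene passed the filter, with sums of 9.12 to 23.2 and 12.4 to 21.3 CPM for the first and 6.08 to 11.2 and 3.19 to 38.2 CPM for the second. Diencephalic and hem or choroid plexus genes had 2 measured each, and Otp, Foxb1, Six6 and Hmx2 of the diencephalon were at 0 throughout. The part of these cell types in the striatal and GABA differences was not tested.

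The high libraries were not alike. Over the 60 genes the highest level was in control 2 for 32, in mutant 1 for 15, in mutant 6 for 9, in control 3 for 3 and in mutant 3 for 1. The lowest of the 5 was mutant 3 for 26 genes. On the other side, mutant 2 was the highest of the 7 for 24 genes, although mutant 5 stood nearest the threshold by Ebf1 and Rarb.

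The size of the difference varied with the labelled group it was fitted in. Over 18 leading genes, the 20 largest without Ebf1 and Rarb, the median was 2.45 within controls, 1.61 within mutants, 2.07 within litter 1 and 1.58 within litter 2. The direction in each subset is fixed by the choice of genes whose 5 and 7 libraries do not overlap, so it is no sign of stability. Drd2 ranged most widely, from 5.05 within controls to 1.00 within litter 2. Whether the differences between subsets exceed their error was not tested.

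The labelled comparison of mutants with controls is independent of the split rule. The level of Arid1a was first compared across the 2 genotypes. It was at 400, 420, 465, 396, 479 and 525 CPM in mutants 1 to 6 and at 464, 474, 492, 515, 541 and 575 CPM in controls 1 to 6. The groups overlapped, and the log2 fold change was -0.30 (SE 0.0958, adjusted p = 0.277 in edgeR's quasi-likelihood test with Benjamini-Hochberg adjustment over all genes). The count covers the whole gene.

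In that test 17 genes (0.159%) fell in mutants and 6 (0.0562%) rose, 23 in all (0.215%). These counts depended on single libraries: without mutant 2 they were 5 and 1, and without control 4 they were 47 and 11. Without the 2 shallowest libraries edgeR called 0 and 0 (671 genes at an unadjusted p under 0.05), DESeq2 on all libraries called 77 and 18, and edgeR without the sex term called 63 and 14. Of the 60 separated genes 0 were called, with 1 at an unadjusted p under 0.05, a smallest adjusted p of 0.561, and 0 called by DESeq2. Over all 10678 genes 937 had an unadjusted edgeR p under 0.05. With 0.215% of all genes called, nothing is read from 0 calls among 60. Gad2 averaged 204 CPM in mutants and 154 CPM in controls, a log2 fold change of 0.71 whose SE was 0.654 (edgeR adjusted p = 0.851). Pbx3 had 0.76 with an SE of 0.696 (edgeR adjusted p = 0.852), and Lhx6 had 0.29 with an SE of 0.169 (edgeR adjusted p = 0.693). For Gad2 and Pbx3 the SE was nearly as large as the fold change itself.

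With the split as a further term the SE became smaller for most of the separated genes. Over the 60 genes the median SE of the genotype log2 fold change went from 0.432 to 0.218 and was smaller for 59 of 60. Over all 10678 genes it went from 0.191 to 0.196 and was smaller for 2294. For subpallial precursor factors the median went from 0.580 to 0.309, for GABA genes from 0.447 to 0.245 and for striatal factors from 0.268 to 0.212. It hardly moved for medial eminence genes, from 0.230 to 0.227. It became larger for striatal signalling genes, from 0.227 to 0.243, for retinoid genes, from 0.292 to 0.312, and for endothelial and pericyte genes, from 0.283 to 0.307. The split was chosen on such genes, so smaller residuals in them follow from the choice. With the split term 0 of the 60 were called, with 0 at an unadjusted p under 0.05, a smallest edgeR adjusted p of 0.585 and 0 called by DESeq2. Over all 10678 genes 940 had an unadjusted edgeR p under 0.05 and 0.328% were called, so nothing is read from 0 calls among 60. Gad2 then had 0.30 with an SE of 0.309 (edgeR adjusted p = 0.875).

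**Figure D4:**
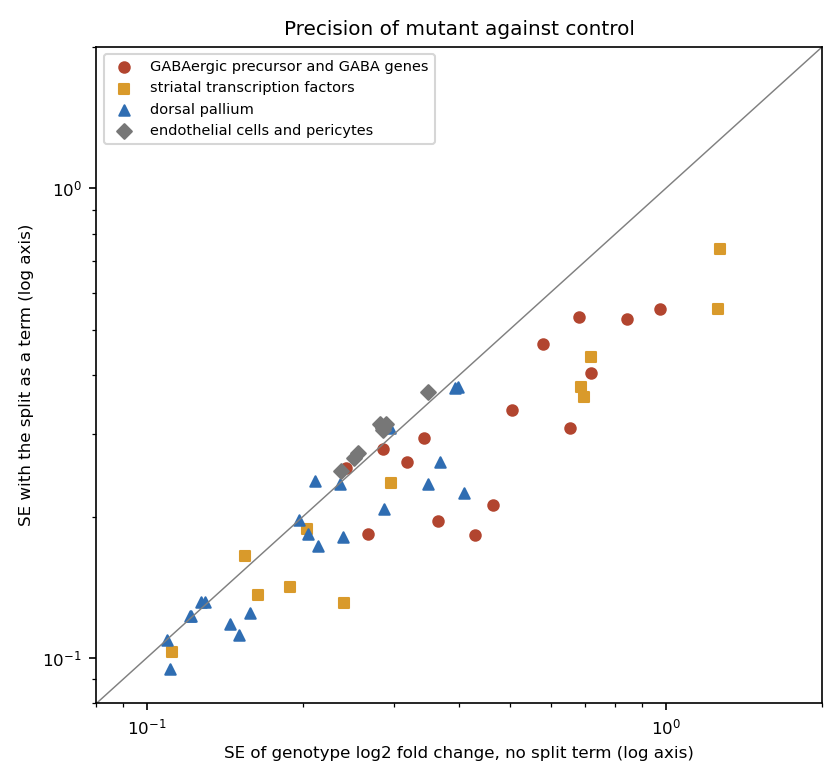
SE of the mutant against control log2 fold change per gene, without the split term on the horizontal axis and with it on the vertical axis, both log axes, for 4 groups of genes, with the line of equality. Most GABAergic and striatal genes lie below the line, and endothelial and pericyte genes lie on or just above it.

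With the split term 25 genes (0.234%) fell in mutants and 10 (0.0937%) rose, 35 in all (0.328%), and 22 of the 23 earlier calls were among them. The exception was Bcan (adjusted p 0.0391 before and 0.0653 after). Without mutant 2 the counts with the split term were 2 and 0, and without control 4 they were 41 and 18. Without the 2 shallowest libraries they were 4 and 0, and DESeq2 called 66 and 24. The 2 genes below, Zfp804a and Cntn4, were singled out after their values were seen, as newly called genes of which the split difference was 0.60 and 0.85.

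Zfp804a, a zinc finger protein gene (GRCm38 chromosome 2, 82053222 to 82259879, plus strand), was at 120, 74.5, 96.4, 68.1, 70.7 and 124.5 CPM in mutants 1 to 6. Controls 1 to 6 held 184, 307, 251, 222, 143 and 139 CPM, so all mutants lay below all controls. Inside each genotype the high libraries were the upper ones. The log2 fold change was -0.86 without the split term (SE 0.251, edgeR adjusted p = 0.286) and -1.10 with it (SE 0.129, edgeR adjusted p = 7.521e-04). The call with the split term was made in all 16 alternatives run, with an adjusted p of at most 0.0475.

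Cntn4, which encodes a contactin adhesion molecule of axons (GRCm38 chromosome 6, 105677660 to 106699310, plus strand), was at 63.8, 43.6, 64.5, 80.9, 41.1 and 61.3 CPM in mutants 1 to 6. Controls 1 to 6 held 20.1, 62.9, 63.3, 26.9, 20.8 and 20.2 CPM. Among the other 7 libraries the 3 mutants lay above the 4 controls, while among the 5 high libraries all values fell between 61.3 and 64.5 CPM in both genotypes. The log2 fold change was 1.40 without the split term (SE 0.365, edgeR adjusted p = 0.218) and 1.18 with it (SE 0.189, edgeR adjusted p = 0.0119). Without mutant 2 the adjusted p with the split term was 0.0648, and without mutant 4 it was 0.166; over the 16 alternatives it ran from 9.16e-08 to 0.167. Whether the genotype difference differed between the 5 and the 7 was not tested.

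Litter, the other labelled group, did not line up with the split. In the edgeR test 66 genes (0.618%) fell in litter 2 and 74 (0.693%) rose, 140 in all (1.31%). Without control 5 these counts were 11 and 16, and without control 4 they were 108 and 115. DESeq2 called 144 and 120. Of the 60 separated genes 0 were called, with 2 at an unadjusted p under 0.05 and 0 called by DESeq2. With 1.31% of all genes called, nothing is read from 0 calls among 60. Bcl11b was the single striatal factor called, at 461 to 755 CPM in litter 1 and 787 to 1224 CPM in litter 2, with a log2 fold change of 0.68 (SE 0.142, edgeR adjusted p = 0.0281).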

How the data were processed

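Each deposited file gives the counts of 1 library as whole numbers by Ensembl gene, not normalized by the authors. The submitters' processing notes name STAR 2.5.2a, HTSeq 0.6.1p1, UMI-tools 0.5.3, cutadapt 1.13, edgeR 3.20.9 and bcl2fastq 2.17, with the build mm10. The annotation release and counting mode are not stated there or in the labels. Closing entries that name no gene (20.7 to 31.6% of a file) were left out. Of 51912 identifiers, 47734 matched GENCODE M21 with their version and 3985 without it. No 2 libraries were copies (chi-square per degree of freedom 1.97 to 17.7 over 66 pairs).

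The filter was filterByExpr, grouped by genotype, at a minimum count of 10. Levels are CPM over TMM library sizes. Fits used edgeR 4.0.16 in R 4.3.3 (glmQLFit, robust). The split fit had terms for litter, genotype and split and gives no p. Genotype and litter were tested with terms for litter, sex and genotype (8 residual degrees of freedom, or 7 with the split), and genes were called at an adjusted p under 0.05. An SE is the log2 fold change divided by the square root of F. Likeness used log2 CPM with a pseudocount of 0.5. A level of 0 allows 3 counts, from 0.831 to 4.56 CPM by library; such limits cover counting error only. DESeq2 1.42.0 was run as another test, and the scripts were tested on simulated data. Tables used Python 3.11.15, pandas 2.3.3 and matplotlib 3.10.9.

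The libraries, members and lists were chosen with earlier results of these data known. Named genes are the 5 markers, Emx1, Arid1a, Gad2, Dlx1, Nkx2-1 and Lhx6, the 20 highest and 10 lowest separated genes with a mean of at least 1 CPM, up to 6 members of each list by size of difference, and the 10 genes most like the markers. Genes named beyond these (further list members, Dach2, Nrxn3, Zfp804a, Cntn4 and others) were chosen after their values were seen. Results for some genes are not reported here.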

Additional observations from a re-analysis of the deposited data

Results flagged for a closer look

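Within each genotype, 41 named genes were examined for a library standing apart from the other 5, by Dixon's ratio at its 95% critical value for 6 libraries. Of 82 groups, 5 were flagged, and chance flags about 1 in 20. Nkx2-1 in mutant 6 was at 5.58 CPM, from 6 counts, against 0 to 1.52 CPM in the other mutants, from at most 4 counts each. Drd2 in mutant 1 was at 38.0 CPM against 4.26 to 14.9 CPM in the other mutants. Drd2 in control 2 was at 43.1 CPM against 0.747 to 16.6 CPM in the other controls. Dchs2 in control 2 was at 53.0 CPM against 2.31 to 17.3 CPM, and Rabepk in control 5 at 15 CPM against 6.36 to 9.20 CPM. The Drd2 and Dchs2 flags are in high libraries and the Rabepk flag is not, which follows from how these separated genes were chosen. Nkx2-1, not chosen by separation, was flagged in mutant 6, also a high library, but on so few counts nothing is read from this flag.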

How the results depend on the processing

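Leaving out 1 library at a time gave 69 to 140 genes with all high libraries above and 32 to 73 below; 5 to 47 genes lower and 0 to 11 higher in mutants; 2 to 41 and 0 to 18 with the split term; and 11 to 108 lower and 16 to 115 higher in litter 2. The genotype counts moved by over 1.5 times in one direction at least without mutants 1 to 5 or without controls 1, 2, 4 or 6, and those with the split term without mutants 1 to 5 or without controls 1, 3, 4 or 6. The litter counts did so without mutants 1 or 5 or without controls 3 to 6. Without the 2 shallowest libraries, 196 genes stood above and 89 below, 0 and 0 genes were called for genotype by edgeR (671 at an unadjusted p under 0.05), and 4 and 0 with the split term. Without the 2 libraries nearest the threshold, an alternative added after seeing the data, 133 stood above and 84 below; fewer libraries separate more easily by construction. Thinning to the shallowest library left 46 above.

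Without a filter the median log2 difference was 1.35 for striatal factors and 0.53 for striatal signalling, and the counts were 199 lower and 62 higher for genotype, 145 and 58 with the split term, and 265 and 328 for litter. In the same order DESeq2 called 77 and 18, 66 and 24, and 144 and 120. Without the sex term genotype gave 63 and 14. Within controls the medians were 0.80 for striatal factors and 1.36 for GABA genes. The cause of these shifts was not tested.

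The uncalled genotype values of a pair of genes changed sign. Gad2 with the split term ran from -0.0854 without mutant 2 to 0.6775 without control 6, and Meis2 from -0.0393 without control 1 to 0.3955 without mutant 4. The list median for dorsal pallium ran from -0.40 to -0.24 over 23 alternatives and that for GABA genes from 0.69 to 1.36. The medial eminence median ran from -0.05 to 0.24. Single genes kept their sign over the split in every alternative run, except Arid1a, which ran from -0.04 to 0.17. For the separated genes the sign is fixed by how they were chosen. The genes most like the markers were also chosen on these levels, so the kept signs are no sign of stability. Depth limits the genes near 1 CPM. No paired analysis was possible because replicate numbers were given in accession order and the numbers in the labels run within a litter.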
